A study of Homo sapiens with 14 samples.

Results

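The genes described here are the numbered zinc finger genes of human chromosome 19, that is, the protein-coding genes of that chromosome whose symbol is ZNF followed by a number. The RefSeq gene table for GRCh38.p14 holds 240 of them among 19974 protein-coding genes on chromosomes 1 to 22 and X. The other 1211 protein-coding genes of chromosome 19 are the genes they were set against. With gaps of at most 500 kb between neighbours, the 240 genes fell into 20 runs, of which 8 held at least 10 genes each and 218 genes in all.

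Most genes of this kind encode DNA-binding proteins with arrays of zinc fingers, many with a KRAB domain that recruits the corepressor TRIM28 and, through it, enzymes that lay down the silencing mark H3K9me3. They arose by repeated local duplication, so neighbours in a cluster often have closely related sequences, and many bind and silence transposable elements. The clusters are known for carrying repressive chromatin over gene bodies while many promoters stay active.

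The libraries are CUT&Tag, in which an antibody brings the Tn5 transposase to a protein or histone mark and the DNA around it is tagged and sequenced. The cells were Jurkat, an established line from a human T cell leukaemia. CTCF, which marks insulators and loop anchors, was mapped in 3 libraries from cells given a lentiviral shRNA against SATB1 (shSATB1, SATB1 knockdown) and 3 from cells given a control shRNA (shCtrl). H3K27ac, which marks active promoters and enhancers, was mapped in 2 shSATB1 and 2 shCtrl libraries. SATB1, a protein that organises chromatin in T cells, was mapped in 2 shCtrl libraries. Matrin 3, a nuclear matrix protein, was mapped in 2 libraries whose labels name no shRNA. The labels do not say that replicates were separate cultures, so the spread between libraries may be technical, and they give no level of SATB1, so the knockdown was not checked here.

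Each library is 1 list of peaks called by the authors in that library, with an unscaled total and maximum signal per peak. Read totals are not in the lists, so depth is unknown. The CTCF lists held 14695, 17904 and 20284 peaks in shSATB1 and 31270, 31141 and 32540 in shCtrl, so the shSATB1 lists were shorter by 44.3% on average, with no overlap between the arms. The H3K27ac lists held 17925 and 15972 peaks in shSATB1 and 17863 and 17141 in shCtrl, the SATB1 lists 15210 and 14726, and the Matrin 3 lists 24566 and 2105. The SATB1 lists shared 6001 peak starts, 40.8% of the shorter list, where the next pair of lists shared 1.03%, so both were counted as 1 sample. H3K27ac lay at an end in both shCtrl lists for 9 of the 9 T cell markers in the gene table, 1 of 6 B cell markers, 0 of 6 myeloid markers and 0 of 4 erythroid markers.

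The promoters below come from the run of genes with the largest share of CTCF loss among the long runs. The promoter table holds 210 of the 240 genes, as 250 bases before to 50 after a start site, and 25 of them, all between ZNF101 and ZNF254, form a family of related sequences. ZNF714, ZNF431 and ZNF91 carried CTCF in every shCtrl list and in no shSATB1 list, ZNF43 carried it in every list of both arms, and ZNF486 had no peak in any list. ZNF43 and ZNF486 were chosen after their values were seen. In these 5 the capitals mark CCAATCAG, a CCAAT box, the kind of element bound by the factor NF-Y. The sequences are RefSeq GRCh38.p14, 5′ to 3′ on the gene's strand, from chr19:21081953-21082252 (ZNF714, plus strand), chr19:21141790-21142089 (ZNF431, plus), chr19:23395422-23395721 (ZNF91, minus), chr19:21836133-21836432 (ZNF43, minus) and chr19:20166964-20167263 (ZNF486, plus).
ZNF714: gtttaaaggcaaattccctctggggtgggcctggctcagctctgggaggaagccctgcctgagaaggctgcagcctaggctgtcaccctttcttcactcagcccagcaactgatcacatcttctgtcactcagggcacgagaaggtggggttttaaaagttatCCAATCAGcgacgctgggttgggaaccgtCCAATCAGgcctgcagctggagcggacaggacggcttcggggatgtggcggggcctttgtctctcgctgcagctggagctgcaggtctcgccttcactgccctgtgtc
ZNF431: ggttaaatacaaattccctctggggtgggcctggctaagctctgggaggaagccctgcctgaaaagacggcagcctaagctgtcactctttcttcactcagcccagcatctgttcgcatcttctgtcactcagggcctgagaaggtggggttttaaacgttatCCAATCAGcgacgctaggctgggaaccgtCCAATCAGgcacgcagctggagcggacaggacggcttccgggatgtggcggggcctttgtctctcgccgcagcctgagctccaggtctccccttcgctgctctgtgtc
ZNF91: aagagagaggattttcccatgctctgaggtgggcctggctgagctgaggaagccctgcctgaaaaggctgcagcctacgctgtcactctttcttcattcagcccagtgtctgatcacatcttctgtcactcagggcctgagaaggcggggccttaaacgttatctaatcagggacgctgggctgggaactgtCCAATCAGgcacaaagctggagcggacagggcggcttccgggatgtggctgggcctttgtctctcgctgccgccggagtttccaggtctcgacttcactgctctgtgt
ZNF43: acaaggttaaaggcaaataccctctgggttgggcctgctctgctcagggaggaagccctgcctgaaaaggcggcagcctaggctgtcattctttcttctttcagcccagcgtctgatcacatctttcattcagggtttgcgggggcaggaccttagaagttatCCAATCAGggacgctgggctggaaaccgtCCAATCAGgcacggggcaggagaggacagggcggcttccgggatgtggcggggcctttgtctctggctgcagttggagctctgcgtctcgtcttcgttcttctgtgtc
ZNF486: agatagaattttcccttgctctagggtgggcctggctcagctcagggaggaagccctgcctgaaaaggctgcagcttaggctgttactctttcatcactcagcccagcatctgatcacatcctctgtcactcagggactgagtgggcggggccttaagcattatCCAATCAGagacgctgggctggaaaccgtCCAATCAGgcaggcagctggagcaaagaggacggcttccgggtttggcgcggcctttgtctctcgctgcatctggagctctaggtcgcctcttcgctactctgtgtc

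Peaks of every target were less frequent at the ends of the zinc finger genes than at the ends of the other chromosome 19 genes. A gene was called in a list when a peak overlapped 2 kb around either annotated end by at least 1 bp. SATB1 lay at 49 and 45 of the 240 genes in its 2 lists, or 20.4% and 18.8%, against 30.6% and 31.1% of the other genes. H3K27ac lay at 83 and 69 zinc finger genes in shSATB1 (34.6% and 28.8%) and at 79 and 73 in shCtrl (32.9% and 30.4%). For the other genes these shares were 44.8% and 40.0% in shSATB1 and 43.1% and 41.8% in shCtrl. So the zinc finger genes stood lower in each SATB1 and H3K27ac list, by 10.1 to 12.4 percentage points, while the H3K27ac arms overlapped. Matrin 3 lay at 104 zinc finger genes (43.3%) in the longer list and at 9 (3.75%) in the shorter, against 46.7% and 10.3% of the other genes. The longer Matrin 3 list gave the smallest gap of the 14 lists, at 3.40 points.

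**Figure D1:**
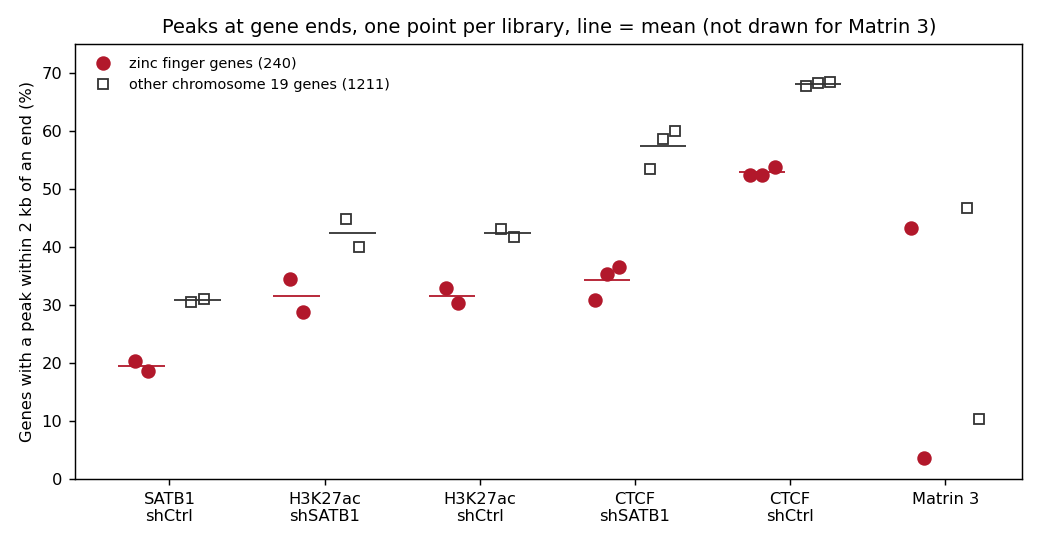
Share of genes (%) with a peak within 2 kb of an annotated end, for the 240 zinc finger genes (red circles) and the 1211 other protein-coding genes of chromosome 19 (open squares), with 1 point per library and a line at the mean where the group's lists are of like length. Red points lie below the open squares of the same list throughout, and CTCF in shSATB1 (30.8% to 36.7% of zinc finger genes) lies below CTCF in shCtrl (52.5% to 53.8%).

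Of the 2 targets mapped in both arms, CTCF alone had counts of zinc finger genes that did not overlap between them. It lay at 74, 85 and 88 zinc finger genes in shSATB1 and at 126, 126 and 129 in shCtrl, or 30.8%, 35.4% and 36.7% against 52.5%, 52.5% and 53.8%. The counts averaged 82.3 ± 7.37 in shSATB1 and 127 ± 1.73 in shCtrl (SD, n = 3 each), so the shSATB1 arm was lower by 44.7 genes, more than the spread within either arm. With each CTCF list cut to the length of the shortest, the mean difference was -5.33 genes. Among the other chromosome 19 genes the shares were 53.5%, 58.6% and 59.95% in shSATB1 and 67.7%, 68.2% and 68.5% in shCtrl. The zinc finger genes stood 22.7, 23.2 and 23.3 points below the others in shSATB1 and 15.2, 15.7 and 14.7 points below them in shCtrl, without overlap between the arms. Over all protein-coding genes the mean share was 44.03% in shSATB1 and 60.65% in shCtrl, also without overlap. The mean difference was -18.6 points for zinc finger genes, -16.6 for all genes and -10.8 for other chromosome 19 genes. The fall at zinc finger genes was thus nearer to that of all genes. An exact permutation test could not give a p below 0.1 for 3 against 3 libraries, and none is given, since the genes were chosen with earlier results known. Over gene bodies CTCF lay at 82, 90 and 94 zinc finger genes in shSATB1 and at 135, 137 and 138 in shCtrl, or 34.2% to 39.2% against 56.2% to 57.5%, where the other genes had 54.7% to 60.4% and 67.5% to 67.9%. H3K27ac lay over 93 and 76 bodies in shSATB1 and over 87 and 83 in shCtrl, or 31.7% to 38.8% against 34.6% to 36.2%, where the other genes had 39.7% to 45.2% and 42.4% to 43.9%. SATB1 lay over 62 and 55 bodies (25.8% and 22.9%), against 29.3% and 30.6% of the other genes. Matrin 3 in the longer list was the exception, over 121 bodies (50.4%) against 47.7% of the other genes, while the shorter list had 13 (5.42%) against 6.44%.

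Requiring every list of a group gives a stricter count. SATB1 lay at 40 zinc finger genes in both lists (16.7%, 95% Wilson interval 12.5% to 21.9%, which covers counting error only), beside 24.5% of all protein-coding genes and 28.3% of the other chromosome 19 genes. H3K27ac lay at 65 in both shSATB1 lists and at 67 in both shCtrl lists, where all genes gave 36.9% and 38.8%. CTCF lay at 71 in every shSATB1 list (29.6%) and at 119 in every shCtrl list (49.6%), beside 37.9% and 58% of all genes. Matrin 3 in the longer list lay at 43.3% of zinc finger genes beside 49.3% of all genes, and in the shorter list at 3.75% beside 7.92%.

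Most SATB1 peaks at zinc finger genes lay at genes that also had H3K27ac. Of the 67 zinc finger genes with H3K27ac in both shCtrl lists, 33 had SATB1 (49.3%), against 316 of 486 other genes (65.0%) and 57.5% of all genes. Of the 173 without it, 7 had SATB1 (4.05%), against 27 of 725 others (3.72%) and 3.66% of all genes. The SATB1 shares of zinc finger and other chromosome 19 genes thus lay apart with H3K27ac and within 0.322 points of each other without it. Matrin 3 in the longer list lay at 63 of the 67 zinc finger genes with H3K27ac (94.0%), against 440 of 486 others (90.5%) and 94.1% of all genes. The zinc finger genes were thus level with all genes there. Without H3K27ac, Matrin 3 lay at 41 of the 173 (23.7%), against 126 of 725 others (17.4%) and 20.9% of all genes. The shorter Matrin 3 list went the other way. With H3K27ac it had 13.4% of zinc finger genes, against 23.7% of others and 18.9% of all genes. Without H3K27ac it had 0%, against 1.38% and 0.957%. None of the 4 targets, in shCtrl for the first 3 and the longer list for Matrin 3, lay at 108 zinc finger genes (45%) and at 401 others (33.1%), while all 4 lay at 33 zinc finger genes (13.8%) and at 309 others (25.5%). Matrin 3 without the other 3 was found at 10 zinc finger genes (4.17%) and at 7 others (0.578%).

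The peaks of the zinc finger genes gathered at their 5′ ends. For the 210 genes whose strand the promoter table gives, CTCF lay at the annotated 5′ end of 65, 74 and 78 in shSATB1 and of 112, 111 and 114 in shCtrl. At the 3′ end it lay at 10, 13 and 13 in shSATB1 and at 19, 19 and 20 in shCtrl. The 3′ shares were thus 4.76% to 6.19% in shSATB1 and 9.05% to 9.52% in shCtrl, while the 975 other genes with a strand had 25.9% to 31.5% in shSATB1 and 40.4% to 41.9% in shCtrl. CTCF was thus lower in shSATB1 at each end, and the zinc finger genes stood farther below the others at the 3′ end. At the 5′ end the mean shares were 34.4% in shSATB1 and 53.5% in shCtrl for zinc finger genes. They were 52.9% and 64.0% for the others, and 41.6% and 57.5% for all genes with a strand. At the 3′ end all genes with a strand had 13.2% and 22.9%. A lower share in shSATB1 was thus not particular to the zinc finger genes at either end. In the 500 bp before the 5′ end, a CTCF peak had its maximum at 22.4%, 23.3% and 26.2% of zinc finger genes in shSATB1 and at 39.0%, 38.6% and 39.0% in shCtrl. The same window held a CTCF maximum at 27.3% to 29.9% of other genes in shSATB1 and at 33.5% to 34.6% in shCtrl, so the zinc finger genes stood below the others there in shSATB1 and above them in shCtrl. H3K27ac lay at the 5′ end of 78 and 63 zinc finger genes in shSATB1 and of 72 and 65 in shCtrl, which overlap.

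**Figure D2:**
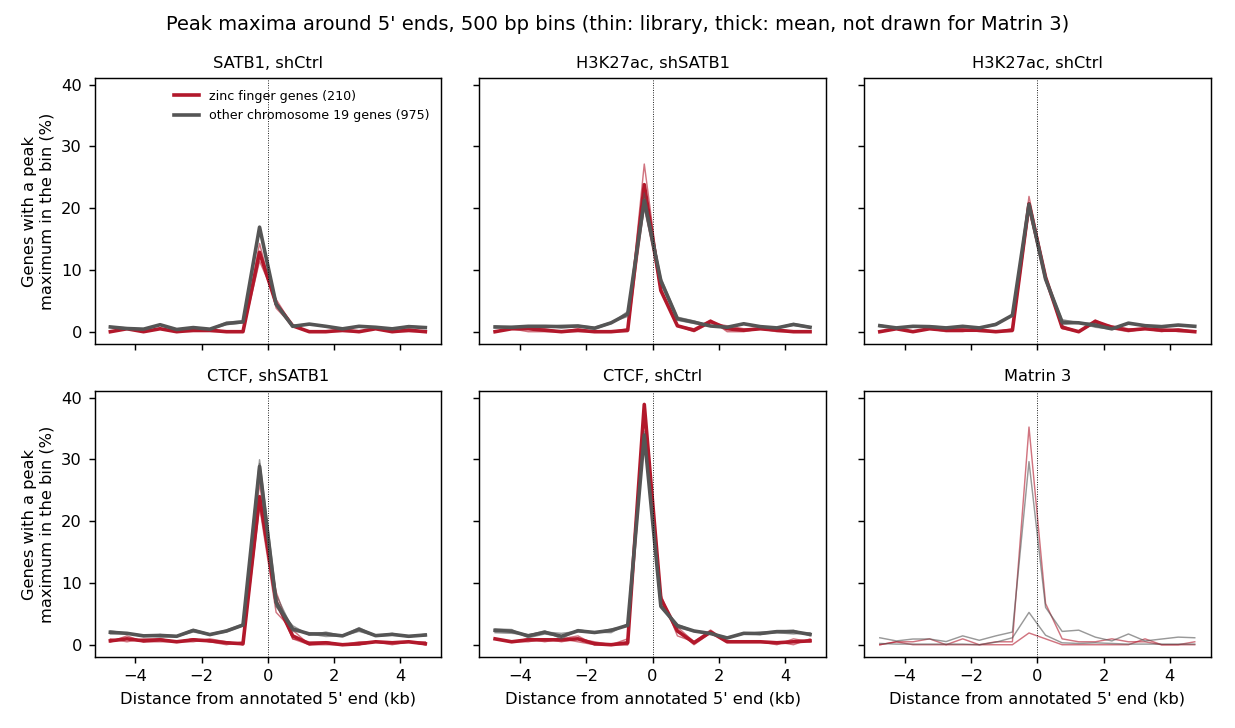
Share of genes (%, y axis) with a peak maximum in each 500 bp bin, by distance from the annotated 5′ end (kb, x axis), for 210 zinc finger genes (red) and 975 other chromosome 19 genes (grey), with thin lines for libraries and thick lines for means, which are not drawn for Matrin 3. Each target has its highest point in the bin just before the 5′ end, where the red CTCF lines reach 22.4% to 26.2% in shSATB1 and 38.6% to 39.0% in shCtrl.

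The covered length showed the same order. CTCF peaks covered 112, 138 and 159 kb around the ends of the zinc finger genes in shSATB1 and 272, 274 and 293 kb in shCtrl, of 1839 kb examined. H3K27ac peaks covered 128 and 112 kb in shSATB1 and 132 and 130 kb in shCtrl, and SATB1 peaks covered 55.3 and 47.4 kb. CTCF coverage was therefore lower in every shSATB1 list by far more than the spread within an arm, while the H3K27ac arms did not overlap but differed in the mean by less than the SD of the shSATB1 lists. Mean CTCF coverage was lower by 51.3% in shSATB1, where the whole lists were shorter by 44.3%. Coverage was not measured at other genes, so neither difference is shown to be particular to the zinc finger genes.

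The 5 zinc finger genes with the strongest peaks were named for each target. ZNF324, ZNF446 and ZNF524 were among them for SATB1, H3K27ac and the longer Matrin 3 list. Those named for CTCF shared only ZNF575 with other targets. Strength is given as the percentile of a peak's maximum signal within its own list, since signals are unscaled. For SATB1 the leading genes were ZNF324 and ZNF446, which share a peak between them (95.6 and 93.7 in the 2 lists), then ZNF584 (93.7 and 94.5), ZNF575 (92.5 and 91.3) and ZNF524 (92.5 and 89.2). At ZNF584 the SATB1 and H3K27ac maxima lay 15708 to 15754 bp past the annotated 5′ end, near the 3′ end, while its CTCF and Matrin 3 maxima lay at positions -267 to -126 bp from the 5′ end. For H3K27ac, ZNF101 led, with percentiles of 94.8 and 96.7 in shSATB1 and 97.5 and 97.8 in shCtrl. ZNF584 (95.1 and 94.6 against 95.9 and 94.8), ZNF324 with ZNF446 (94.6 and 94.6 against 94.1 and 93.7) and ZNF524 (92.5 and 93.6 against 86.6 and 90.6) followed. These 5 genes were thus near the top of the H3K27ac lists in both arms.

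The strongest CTCF peaks lay at ZNF541, ZNF554, ZNF653, ZNF491 and ZNF575, with means of 97.4 to 99.0 over the shCtrl lists. ZNF541 had 97.2 and 98.5 in shSATB1 replicates 1 and 2 and no peak at an end in replicate 3, against 99.0, 99.1 and 98.8 in shCtrl. Its peak lay past the 3′ end, with the maximum outside the 2 kb window, so the call rested on the peak's edge. ZNF554 had 98.1, 98.0 and 98.9 in shSATB1 and 98.7, 98.7 and 99.0 in shCtrl. The percentiles of lists of different length do not measure a change. For Matrin 3 the leading genes of the longer list were ZNF575 (98.8), ZNF524 (97.2), ZNF324 with ZNF446 (94.5) and ZNF544 (94.4, a peak shared with ZNF8).

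Peaks in every one of the 14 lists were found at 9 zinc finger genes, namely ZNF77, ZNF146, ZNF566, ZNF575, ZNF428, ZNF460, ZNF837, ZNF324 and ZNF446. They were 3.75% of the 240, against 114 of the other chromosome 19 genes (9.41%) and 6.26% of all genes. Among them, ZNF460 had CTCF percentiles of 67.6, 58.2 and 69.8 in shSATB1 and 76.8, 78.0 and 80.4 in shCtrl. Its SATB1 percentiles were 65.7 and 79.9. Because 65 of the 240 genes have an end within 2 kb of another gene's end, 42 of them another zinc finger gene's, neighbours can share a peak and are not independent.

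After SATB1 knockdown, 25 zinc finger genes lost CTCF, that is, they had a peak at an end in every shCtrl list and in no shSATB1 list. They were 21.0% of the 119 called in every shCtrl list (95% Wilson interval 14.7% to 29.2%), beside 14.8% of 11580 such genes in the whole table and 51 of 797 other chromosome 19 genes (6.40%, 4.90% to 8.32%). The zinc finger genes thus stood 14.6 points above the other genes of their chromosome and closer to the background. Of the rest of the 119, 71 were called in every shSATB1 list and 23 in some. No zinc finger gene gained CTCF by the reverse rule, and neither did any other gene (0% of 7364 genes), where the shSATB1 lists are the shorter. With lists cut to equal length, 0 of 152 zinc finger genes and 3 of 471 other chromosome 19 genes gained it, beside 0.561% of 10518 genes in all. Counted as distinct merged regions, 28 of 127 regions at zinc finger gene ends were in no shSATB1 list, against 74 of 781 at other gene ends (9.48%), with 22 regions common to both.

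The lost peaks were weaker ones. The 10 highest-ranked lost genes were ZNF714, ZNF766, ZNF431, ZNF91, ZNF681, ZNF329, ZNF17, ZNF304, ZNF121 and ZNF776. By the loss rule itself, none of the 10 had a CTCF peak at an end in any shSATB1 list. In shCtrl the percentiles of ZNF714 were 59.7, 65.4 and 68.7, with the maxima at positions -70 to -67 bp from the 5′ end. ZNF766 had 73.4, 61.1 and 56.9, and ZNF91 had 54.9, 56.0 and 56.9. Those values lie in the middle of the CTCF lists. Over all 25 the median of the mean percentile was 34.7 (range 7.99 to 64.6), against 86.6 for the 71 kept genes. Of 24 lost genes with a strand, 17 had the CTCF maximum within 500 bp of the 5′ end, and the peaks of these 17 were 811 to 2502 bp wide in shCtrl, with a median of 1516 bp.

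The zinc finger genes also had weaker CTCF peaks to begin with, with a median percentile of 70.3 in shCtrl, against 87.8 at the other chromosome 19 genes and 75.8 over all genes. By quintiles of that percentile, 18 of 34 zinc finger genes (52.9%) in the weakest quintile lost CTCF, against 31 of 77 other genes (40.3%) and 52.8% of all genes. In the next quintile it was 7 of 22 (31.8%), against 14 of 125 others (11.2%) and 16.7% of all. In the upper 3 quintiles no zinc finger gene of 16, 27 and 20 lost it, against 3 of 125, 2 of 178 and 1 of 292 others. So the losses of zinc finger genes were confined to the weaker 2 quintiles, and lay beside the genome-wide share in the weakest. In the next quintile their share was higher, but its Wilson interval of 16.4% to 52.7% covers the 16.7% of all genes. With each CTCF list cut to the length of the shortest by maximum signal, 3 of 75 zinc finger genes (4%) and 12 of 657 others (1.83%) met the rule, beside 4.06% of all genes, so the count depended on list length. The 3 were ZNF714, ZNF91 and ZNF766. By quintile with these cut lists, 3 of 17 zinc finger genes met the rule in the weakest and 0 of 10 in the next. All genes gave 14.3% and 2.81% there.

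**Figure D3:**
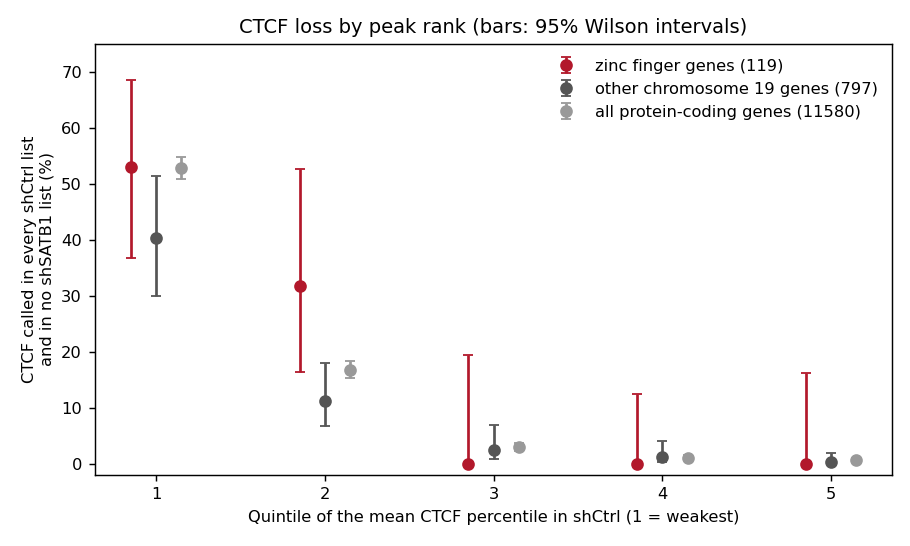
Share of genes (%, y axis) with an end called for CTCF in every shCtrl list and in no shSATB1 list, by quintile of the gene's mean within-list CTCF percentile in shCtrl (x axis, 1 is weakest), for zinc finger genes (red), other chromosome 19 genes (dark grey) and all protein-coding genes (light grey), with 95% Wilson intervals. Loss is concentrated in the weakest quintiles in each gene group, and the zinc finger genes have 52.9% and 31.8% there.

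The loss also went with the other targets. Of zinc finger genes with SATB1 in both lists, 1 of 40 lost CTCF (2.50%), against 24 of 79 without SATB1 (30.4%). For other chromosome 19 genes it was 0 of 340 with SATB1 (Wilson upper bound 1.12%) and 51 of 457 without (11.2%), and for all genes 5.46% and 21.3%. The gene with SATB1 that lost CTCF was ZNF571, named after its values were seen. Of zinc finger genes with H3K27ac in both shCtrl lists, 8 of 64 lost CTCF (12.5%), against 17 of 55 without (30.9%). Among others it was 6 of 483 with H3K27ac (1.24%) and 45 of 314 without (14.3%), and for all genes 9.93% and 23.5%. The zinc finger genes thus lay nearer to all genes than to the others of their chromosome. In each group, genes lacking SATB1 or H3K27ac lost CTCF in the larger share. The 71 kept genes held 36 with SATB1 and 47 with H3K27ac in both shCtrl lists. Since peak strength differed between the same genes, the part of each was not tested.

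All 8 long runs had fewer zinc finger genes with CTCF in every shSATB1 list than in any shCtrl list, but to different extents. Between ZNF101 and ZNF254, a run of 37 genes at chr19:19668153-24129968, CTCF lay at 2, 4 and 4 genes in shSATB1 and at 11, 12 and 12 in shCtrl. H3K27ac there lay at 8 and 7 genes in shSATB1 and at 8 and 7 in shCtrl, and SATB1 in both lists at 1. The CTCF arms stood apart in this run and the H3K27ac arms were level, and 6 of its 11 genes with CTCF in every shCtrl list lost it (54.5%). Between ZNF264 and ZNF446, 41 genes at the far end of the long arm, CTCF lay at 14, 14 and 17 in shSATB1 and at 27, 27 and 29 in shCtrl, and 8 of 25 lost it (32%). Between ZNF653 and ZNF791, 25 genes, the counts were 14, 15 and 14 against 18, 18 and 17, and 1 of 17 lost it (5.88%). The ZNF101 to ZNF254 run had the largest share lost of the 8 and the ZNF653 to ZNF791 run the smallest. The 39 genes between ZNF175 and ZNF331 gave 6, 7 and 9 against 14, 13 and 14, and the 24 between ZNF565 and ZNF573 gave 10, 13 and 13 against 14 each.

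The remaining long runs were smaller. ZNF575 to ZNF180 (23 genes) had CTCF at 5 in each shSATB1 list, against 7, 8 and 8 in shCtrl. ZNF628 to ZNF835 (16 genes) had it at 8 in each, against 10, 10 and 9, and ZNF414 to ZNF846 (13 genes) at 5, 6 and 7, against 8, 8 and 9. Differences there were of 1 to 4 genes. Without the ZNF101 to ZNF254 run, 19 of 108 zinc finger genes lost CTCF (17.6%). Genes without a ZNF number that lie inside the long runs lost CTCF in 8 of 41 cases (19.5%), against 43 of 756 outside them (5.69%). Other zinc finger symbols of chromosome 19 (ZFP, ZSCAN, ZIM, ZIK, ZBTB and PEG3) lost it in 4 of 14 (28.6%). Inside the long runs the share lost by the other genes was thus near the 21.0% of all zinc finger genes tested, inside and outside runs. Those other genes were not sorted by symbol and can share a CTCF region with a zinc finger neighbour.

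**Figure D4:**
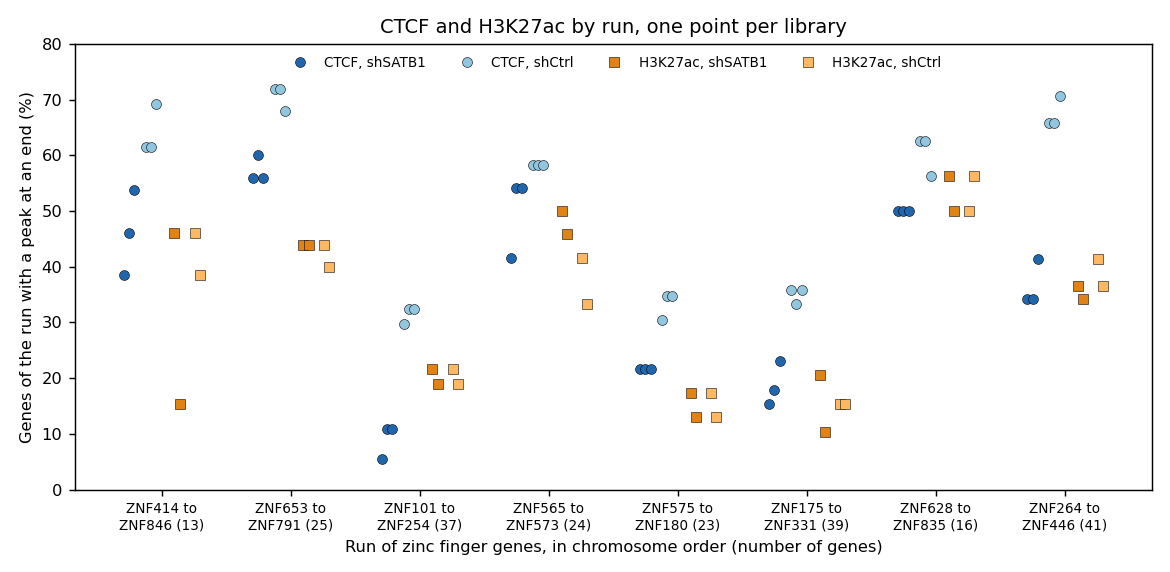
Share of zinc finger genes (%, y axis) with a peak at an end in each CTCF (circles) and H3K27ac (squares) library, for the 8 runs of at least 10 genes in chromosome order (x axis), with shSATB1 in the darker and shCtrl in the lighter colour. CTCF in shSATB1 lies below shCtrl in each run, as over all protein-coding genes, and between ZNF101 and ZNF254 it is at 2, 4 and 4 of 37 genes against 11, 12 and 12.

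The promoter family lies inside that run. The 25 promoters had at least 60% identity to that of ZNF714 in a global alignment, a limit set after the values were seen. Their identities ran from 64.5% to 91.0%, while the next zinc finger promoter, of ZNF627, had 59.2% and the other chromosome 19 promoters had a median of 46.6% and a highest of 54.1%. CCAATCAG, searched on both strands and chosen after the promoters were compared, occurred in 29 of 29 promoters of the run, in 28 of 181 other zinc finger promoters (15.5%), in 6.05% of other chromosome 19 promoters and in 5.22% of all 15812 promoters. The CTCF core motif, searched on both strands, occurred in 1 of 210 zinc finger promoters (0.476%), in 0.410% of other chromosome 19 promoters and in 0.512% of all promoters, and in 0 of 29 in the run. That promoter was of ZNF814, named after the search, which had no peak in any list within 2 kb of it. A match is a description of the letters and not a site.

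Genes with these related promoters differed in their peaks. Within 2 kb of the start sites of the promoter table, CTCF lay at 7 of the 25 genes in every shCtrl list and at 18 in none. Each of the 7 also had Matrin 3 in the longer list, 4 had H3K27ac in both lists of each arm, and 1 had SATB1 in both lists. By the loss rule 5 of the 7 had lost CTCF, namely ZNF714, ZNF431, ZNF91, ZNF681 and ZNF675, the last named after its values were seen. At ZNF431 the CTCF percentiles in shCtrl were 57.2, 66.9 and 51.5, while H3K27ac stayed called, at 80.04 and 45.8 in shSATB1 and 48.6 and 50.2 in shCtrl. At ZNF714 the H3K27ac percentiles were 69.5 and 30.3 in shSATB1 and 46.7 and 46.2 in shCtrl. So both of these promoters had H3K27ac called in each list of both arms and CTCF in shCtrl alone.

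ZNF43 went the other way at its start site. There the CTCF percentiles were 19.1, 32.1 and 27.04 in shSATB1 and 70.7, 69.0 and 69.9 in shCtrl, SATB1 had 49.5 and 53.6, and H3K27ac was called in each list. Its annotated 5′ end, 15883 bp away, counted as having lost CTCF, so the choice of start decided its call. The CTCF peak of ZNF724, named after its values were seen, was in every shCtrl list and in shSATB1 replicate 3. The other 18 promoters, among them ZNF486, had no CTCF, and 17 had no peak in any list within 2 kb of the start site. CpG dinucleotides per promoter were 9 to 14 with CTCF (median 11) and 8 to 16 without (median 10), which overlap. The sources used here do not say how reads that match several copies were treated, so a gene of this family without a peak is not shown to lack the protein.

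**Figure D5:**
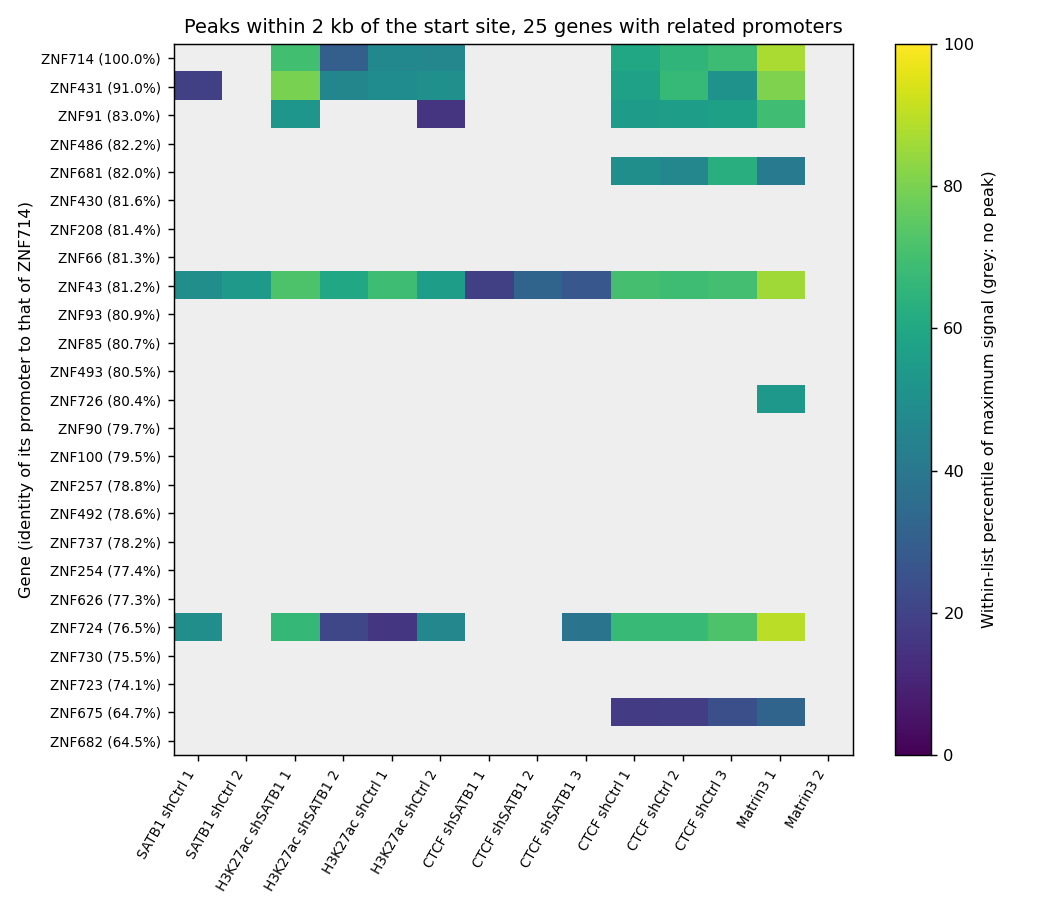
Within-list percentile of maximum signal (colour, grey where there is no peak) of the strongest peak within 2 kb of the start site, for the 25 genes with related promoters (rows, with identity to the ZNF714 promoter) in each of the 14 libraries (columns). CTCF fills 7 rows in shCtrl, of which ZNF43 alone is filled in each shSATB1 column, and 17 rows are empty; percentiles from lists of different length show no change.

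None of the 67 genes with H3K27ac in both shCtrl lists was without it in both shSATB1 lists (0%, Wilson upper bound 5.42%, beside 2.18% of 7744 such genes in all), and 60 had it in both, 7 in 1 of them. Each shSATB1 list held 97.0% and 92.5% of the 67, against 97.5% and 92.4% of 486 other chromosome 19 genes. By the reverse rule ZNF527 alone gained H3K27ac, beside 0.884% of 11318 genes in all. Both counts rest on 2 libraries an arm. Leaving out each library, which loosens the rule, gave 1 to 5 genes lost and 2 to 6 gained, while the 5′ end alone gave 2 gained. The H3K27ac percentiles of ZNF527 were 12.1 and 16.9 in shSATB1, among the weakest peaks of those lists, with no peak in shCtrl. CTCF stayed called at ZNF527, at 15.7, 46.0 and 46.2 in shSATB1 and 71.5, 78.0 and 74.2 in shCtrl. Of the 25 genes that lost CTCF, 8 had H3K27ac in both shCtrl lists, and 5 of these had it in both shSATB1 lists and 3 in 1 of them. Of the 59 other genes with H3K27ac in both shCtrl lists, 55 had it in both shSATB1 lists and 4 in 1 of them.

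Zinc finger genes with no peak over body or ends in any list numbered 84 (35%), against 301 other chromosome 19 genes (24.9%) and 26.6% of all genes. Their median length was 24864.5 bp, against 23130.5 bp for the 240, whereas other chromosome 19 genes without a peak had a median of 8814 bp, against 12798 bp for all 1211. The longest were ZNF568 (81.6 kb), ZNF676 (81.2 kb), ZNF730 (72.0 kb), ZNF208 (71.1 kb) and ZNF600 (69.5 kb). Of the 84, 24 lay between ZNF101 and ZNF254, 21 between ZNF175 and ZNF331 and 15 between ZNF575 and ZNF180. Of the 8 long runs these 3 had the lowest shares of genes with CTCF in shCtrl, at 29.7% to 35.9% per list. That is in part the same count, since a gene without any peak has no CTCF.

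The genes for 24 listed partners of KRAB zinc finger proteins were read against the same backgrounds. H3K27ac lay at 18 in both shSATB1 lists and at 18 in both shCtrl lists, beside 36.9% and 38.8% of all genes. CTCF lay at 11 in every shSATB1 list and at 18 in every shCtrl list, beside 37.9% and 58%. SATB1 in both lists lay at 11, beside 24.5%, and Matrin 3 in the longer list at 19, beside 49.3%. TRIM28, the corepressor itself, lies at chr19:58544064-58550715, beyond the ZNF264 to ZNF446 run, and had a peak in all 14 lists. Its mean percentiles were 96.0 in shSATB1 and 98.3 in shCtrl for CTCF, 94.5 and 93.4 for H3K27ac, and 95.1 for SATB1. The cofactors ATF7IP, a partner of the methyltransferase SETDB1, and PPHLN1, a subunit of the HUSH silencing complex, lost CTCF, 2 of the 18 with it in every shCtrl list, beside 14.8% of all such genes.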

How the data were processed

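The authors deposited 1 peak list per library. As deposited by the authors, the signal of a peak is its summed coverage and the highest coverage in it, with no scaling recorded in the files. The submitters' processing notes name SEACR, Bowtie2, Trim Galore, deepTools and SAMtools, MACS2 except for Matrin 3, and GRCh38. Versions, the alignment filter and read totals are not given in the sources used here. Of 273747 peaks, 405 (0.148%) off chromosomes 1 to 22 and X were left out. Genes and promoters came from RefSeq GRCh38.p14; strand is known for 15812 genes through the promoter table. Positions are 1-based.

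Libraries were grouped by label. The genes, lists and rules were chosen with earlier results of these data known. Within the planned rule, genes named were the 5 strongest per target, up to 10 that lost or gained a peak, those in all 14 lists, the 5 longest without a peak and those at the ends of runs. No p is given over the genes. Libraries were not paired by replicate number in the main results. Correlations of deviations between libraries of the same number were -0.00845 to -0.00408 for CTCF and 0.0181 for H3K27ac. With 2 H3K27ac libraries per arm the deviations mirror each other, so that check cannot settle whether they were paired. Alternatives were windows of 1 and 5 kb, 5′ ends or start sites, gene bodies, equal list lengths, the peak maximum, merged regions, rank quintiles, other backgrounds, each library left out and a replicate block. Software was pandas 2.3.3, Biopython 1.88, numpy 2.4.6, matplotlib 3.10.9 and scipy 1.17.1 in Python 3.11.15.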

Additional observations from a re-analysis of the deposited data

How the results depend on the processing

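The CTCF results depended on list length. With lists cut to equal length, the difference between shSATB1 and shCtrl in zinc finger genes with CTCF went to -5.33 genes (main value -44.7), the genes that lost CTCF to 3 (main 25) and the gap in percent lost between zinc finger genes and other chromosome 19 genes to 2.17 points (main 14.6). The gap was 6.80 points within quintiles of rank and 1.37 points with equal length and quintiles together, a setting chosen after seeing the data. Leaving out each library gave differences of -47.5 to -40.5 genes, 26 to 33 lost genes and gaps of 15.1 to 17.9 points. The lost count could not fall, since leaving out a list only loosens the rule. The sign of the difference could not change either, since every shSATB1 list had fewer zinc finger genes than every shCtrl list. Settings chosen after seeing the data also gave gaps of 15.1 points for genes with exactly 1 CTCF region, 11.2 points without the ZNF101 to ZNF254 run and 13.8 points at start sites of the promoter table, where 23 genes lost CTCF.

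For H3K27ac, leaving out each library gave 1 to 5 genes lost (main 0), 2 to 6 gained (main 1) and differences between the arms of -7 to 7 genes (main 0). The lost and gained counts could only stay or rise, since the rule is looser with a list left out. The 5′ end alone gave 2 gained. The SATB1 gap between zinc finger and other genes was -5.67 points over gene bodies (main -11.7). The Matrin 3 gap in the longer list (main -3.40 points) reversed to 2.69 points over gene bodies and to 3.49 points among genes with H3K27ac. In those 2 settings zinc finger genes had 50.4% and 94.0%, and all genes 55.0% and 94.1%. In the shorter list the gap was -6.57 points at the ends, -1.02 over gene bodies and -10.2 among genes with H3K27ac. With the replicate number as a block the mean differences stayed at -44.7 genes for CTCF and 0 for H3K27ac, which such a block cannot change. The spread of the difference was 7.57 genes for CTCF and 10.8 for H3K27ac without the block, from the SDs of both arms. With the block it was 6.35 and 5.66, the SD of the differences between libraries of the same number. Over the alternatives run, 75 values stayed within the spread between libraries (counts of lost or gained genes within 1.5 times, gaps in percent within the Wilson half-width), 15 moved beyond it and 2 reversed. Unknown depth and unscaled signal limit all comparisons to presence or absence of a peak, and the cause of the changes was not tested, other than that equal lengths remove the weaker peaks of the longer lists.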
